A study of Mus musculus with 2 samples.

Results

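Interferon-high lymphocytes are the B and T cells of these spleens that held many transcripts of interferon-induced genes. A barcode was counted as a member if it had at least 1000 UMIs (unique molecular identifiers, each standing for 1 captured transcript), at most 10% mitochondrial UMIs, and at least 5 UMIs summed over 7 rule genes. The rule genes were Ifit1, Ifit2, Ifit3, Ifit3b, Usp18, Isg15 and Oasl1, and their sum is called the interferon sum. A B cell needed at least 2 UMIs of Cd79a and Cd79b and 0 of Cd3d, Cd3e and Cd3g, and a T cell at least 1 Cd3 UMI and 0 of Cd79a. The rule took 123 of 28962 barcodes, namely 45 B and 36 T cells in the ALLO library and 27 B and 15 T cells in the SYN library. They were set beside interferon-zero cells, the cells of the same lineage and library with an interferon sum of 0: 6023 ALLO B, 1271 ALLO T, 6176 SYN B and 1827 SYN T cells. The members were picked on UMIs of these same cells, so every value of members against interferon-zero cells is a description, and no test was made of it.

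Both libraries were made from splenocytes of wild-type C57BL/6 mice that carried skin grafts. The ALLO library followed 2 grafts of tail skin, at weeks 0 and 5, of the donor strain C57BL/6-Tg(HLAA2.1)1Enge/J, whose transgene codes for a human class I molecule, and the SYN library followed grafts of wild-type C57BL/6 skin by the same procedure. Donors and recipients were anaesthetized with Zoletil and Rompun, spleens were taken 4 weeks after the second graft, and the cells were frozen, thawed and passed over a dead cell removal column before 5′ capture. The age of the mice is not given in the sources used here, and the labels do not say how many animals a library holds. The ALLO library held 39476214 UMIs over 11185 barcodes and the SYN library 45435231 over 17777, with medians of 3113 and 2036 UMIs. With 1 library in each group no difference has a replicate check, and each comparison is between these 2 libraries rather than between the grafts. Intervals in parentheses are exact at 95% and cover counting error only. The libraries shared 264 barcode sequences, which 3 members carried, 1 ALLO B and 2 ALLO T cells.

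Type I interferons bind a receptor of Ifnar1 and Ifnar2, whose kinases Jak1 and Tyk2 pass the signal to a factor that contains Stat2 and Irf9. This factor binds interferon-stimulated response elements, repeats of the letters GAAA, in front of many genes. Interferon gamma acts through its own receptor, and its targets overlap with those of type I interferon. The Ifit proteins bind viral RNA, Isg15 is a ubiquitin-like protein that is attached to other proteins, Usp18 removes it and dampens the receptor, and Oasl1 belongs to the family of oligoadenylate synthetases. In lymphocytes the response is known for restraining viruses and for changing activation and recirculation through lymphoid organs.

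The rule genes lie in 4 places of the mm10 genome (GRCm38). Ifit2 (chr19:34550550-34576534), Ifit3 (chr19:34583119-34588982), Ifit3b (chr19:34607530-34613403) and Ifit1 (chr19:34640889-34650009) form a cluster, with Usp18 at chr6:121245906-121270917, Isg15 at chr4:156199424-156200818 and Oasl1 at chr5:114923143-114937911. The GENCODE transcripts of Ifit3 and Ifit3b are 97.8% identical over 1700 aligned columns, so the split of UMIs between them is uncertain. Promoter windows from RefSeq (GRCm38.p6, 300 bases, 250 before and 50 after the start) were searched on both strands for GAAANNGAAA, where N is any base. At least 1 window held the pattern in 3.99% of 27025 genes, and 4 of the 6 rule genes with a window held it, all but Ifit2 and Oasl1. The 6 stretches of 100 bases below are shown because they carry it at RefSeq start sites of rule genes and of a pair of genes described below, with the matches in capitals:
Ifit1 (chr19:34640749-34640848, + strand, matches from -104 to -85): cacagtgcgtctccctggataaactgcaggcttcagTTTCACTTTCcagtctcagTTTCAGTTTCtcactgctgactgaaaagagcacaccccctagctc
Ifit3 (chr19:34583345-34583444, + strand, matches from -156 to -122): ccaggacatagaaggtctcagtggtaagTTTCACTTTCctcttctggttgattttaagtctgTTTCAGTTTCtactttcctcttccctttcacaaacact
Ifit3b (chr19:34607741-34607840, + strand, matches from -188 to -154): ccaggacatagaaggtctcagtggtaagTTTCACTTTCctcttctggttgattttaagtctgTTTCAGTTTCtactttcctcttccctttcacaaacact
Isg15 (chr4:156200836-156200935, - strand, matches from -78 to -66): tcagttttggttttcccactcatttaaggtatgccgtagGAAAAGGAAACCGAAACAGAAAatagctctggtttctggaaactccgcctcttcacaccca
Slfn5 (chr11:82951902-82952001, + strand, match at -155): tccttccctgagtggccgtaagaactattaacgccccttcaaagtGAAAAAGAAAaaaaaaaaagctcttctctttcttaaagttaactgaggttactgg
Bst2 (chr8:71537545-71537644, - strand, matches from -130 to -124): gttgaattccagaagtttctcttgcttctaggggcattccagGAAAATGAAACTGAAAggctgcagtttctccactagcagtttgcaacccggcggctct
Positions count from the start of the RefSeq transcript the window belongs to, which in Ifit3 and Ifit3b lies downstream of the outermost start of the gene, so these stretches fall inside the gene coordinates above, and each stretch runs 5′ to 3′ on the strand of its gene. In Ifit1, Ifit3 and Ifit3b the matches read TTTCNNTTTC, the same pattern on the other strand, and adjoining matches in Isg15 and Bst2 overlap. The printed stretches of Ifit3 and Ifit3b are the same in every letter.

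Outside the rule, the pattern was held by 25 of 66 induced genes with a window (37.9%). That list joins antiviral effectors, genes of ISG15 attachment and other induced genes, 78 in all, of which 74 were in the files. Among interferon gamma GTPases it was in 10 of 11 genes with a window, among nucleic acid sensors in 5 of 11, and among class I antigen presentation genes in 5 of 17. None of the 8 class II, 13 NF-kB or 15 immediate early genes with a window held it. A match is a description of letters, not of a bound site.

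Interferon-high cells were rare in both lineages, and the ALLO library held more of them per cell. They made up 0.648% (0.473 to 0.867%) of 6941 ALLO B cells and 0.397% (0.262 to 0.577%) of 6802 SYN B cells, a ratio of 1.63 (0.992 to 2.74) whose interval includes 1. Among T cells they were 2.05% (1.44 to 2.83%) of 1757 ALLO cells and 0.624% (0.35 to 1.03%) of 2404 SYN cells, a ratio of 3.28 (1.75 to 6.46). Within ALLO, T cells held 3.16 times (1.98 to 5.01) the share of B cells, and within SYN 1.57 times (0.777 to 3.06). The difference of these ratios was not tested.

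A UMI sum depends on depth, so the shares were repeated with each cell thinned to 1000 UMIs. A thinned sum of at least 2 was held by 2.28% of ALLO and 0.749% of SYN T cells, a ratio of 3.04 (1.70 to 5.63), and by 0.764% and 0.456% of B cells, a ratio of 1.68 (1.06 to 2.70). A thinned sum of at least 3 was held by 18 ALLO T cells and by 0 of 2404 SYN T cells, which allows up to 0.153%. Median depth was 3446 UMIs in ALLO B members against 3139 in interferon-zero cells, 4573 against 3998 in ALLO T, 3333 against 2964.5 in SYN B and 5491 against 3910 in SYN T. The members were thus deeper than interferon-zero cells in all 4 groups, so levels are given per 10000 or per 1000000 UMIs and, where stated, on thinned cells.

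Both CD4 and CD8 T cells contributed. Members were 14 of 573 ALLO and 8 of 868 SYN T cells with Cd4 UMIs and no Cd8a or Cd8b1 UMI, a ratio of shares of 2.65 (1.04 to 7.29). Of T cells with Cd8a or Cd8b1 UMIs alone, 12 of 588 ALLO and 4 of 607 SYN cells were members, a ratio of 3.10 (0.939 to 13.2). CD4 over CD8, the ratio was 1.20 (0.514 to 2.83) in ALLO and 1.40 (0.375 to 6.35) in SYN, so neither subset stood out beyond counting error.

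The sums themselves, which chose the members, are given as a description. The interferon sum of members had a median of 9 and a highest value of 46 in ALLO B cells, 9.5 and 63 in ALLO T, 6 and 25 in SYN B, and 6 and 13 in SYN T. Sums of 10 or more were held by 22 ALLO B, 18 ALLO T, 5 SYN B and 1 SYN T cell. At the limit itself, 6, 8, 12 and 5 members of these groups in that order had a sum of exactly 5, and just outside it 14, 20, 10 and 7 cells had a sum of 4. Cells with at least 1 rule UMI were 13.2% of ALLO and 9.20% of SYN B cells, and 27.7% and 24.0% of T cells.

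**Figure D1:**
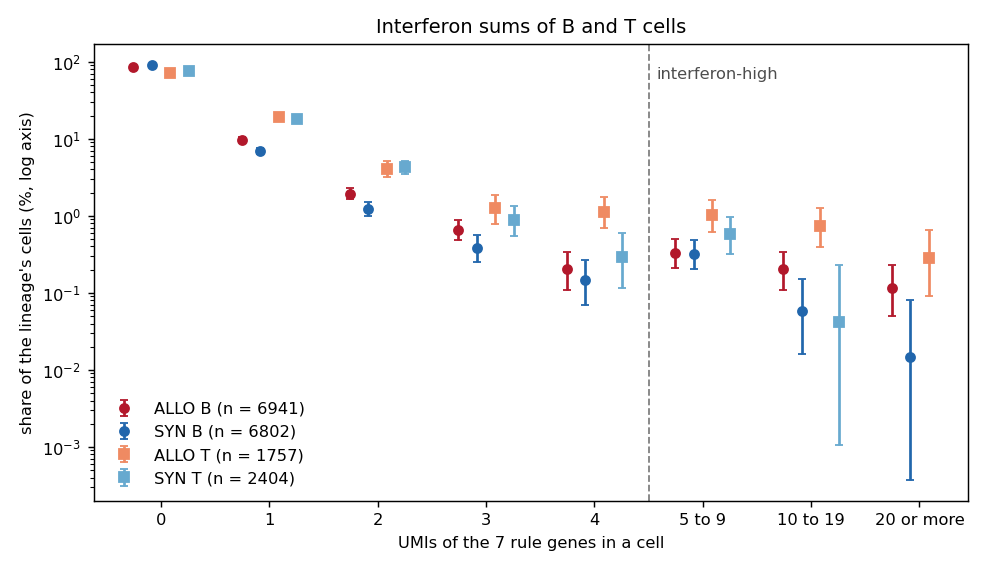
Share of B and T cells (percent of the lineage, log axis) by interferon sum (UMIs of the 7 rule genes in a cell), with points for each library and lineage and bars for Clopper-Pearson 95% intervals. Sums of 20 or more were held by 8 ALLO B, 5 ALLO T and 1 SYN B cell, and the empty SYN T class is not drawn.

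Which rule genes made up the sum differed between B and T cells. Ifit3 gave 188 of 586 rule UMIs in ALLO B members (32.1%) and 90 of 460 in ALLO T members (19.6%), while Isg15 gave 20.5% and 41.3%. In SYN, Ifit3 gave 17.3% of the B and 7.84% of the T sum, and Isg15 gave 38.3% and 44.1%. Isg15 UMIs were in 34 of 36 ALLO and 14 of 15 SYN T members, and in 33 of 45 ALLO and 19 of 27 SYN B members. Oasl1 ran the other way, with UMIs in 75.6% (60.5 to 87.1%) of ALLO B and 59.3% (38.8 to 77.6%) of SYN B members but in 16.7% (6.37 to 32.8%) of ALLO T and 33.3% (11.8 to 61.6%) of SYN T members. Among cells that were not members, Oasl1 UMIs were in 4.61% of ALLO and 3.01% of SYN B cells and in 1.28% and 1.47% of T cells, and Ifit2 UMIs were in 8.48% and 9.38% of T cells but 1.87% and 1.36% of B cells. Low Ifit2 levels were thus spread over T cells outside the rule.

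Genes outside the rule were high in the same cells. The 74 induced genes gave a median of 203 UMIs per 10000 in ALLO B members (lowest 57.7, highest 430) against 49.2 in interferon-zero cells, and 159 (37.7 to 441) against 49.4 in SYN B. In ALLO T members the median was 185 (66.4 to 348) against 69.6, and in SYN T 114 (62.5 to 265) against 67.1. The groups overlapped: 38 of 45 ALLO B, 18 of 36 ALLO T, 15 of 27 SYN B and 5 of 15 SYN T members lay above the 99th percentile of interferon-zero cells. After thinning to 1000 UMIs the medians were 200 against 50 in ALLO B, 200 against 70 in ALLO T, 150 against 50 in SYN B and 130 against 70 in SYN T.

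**Figure D2:**
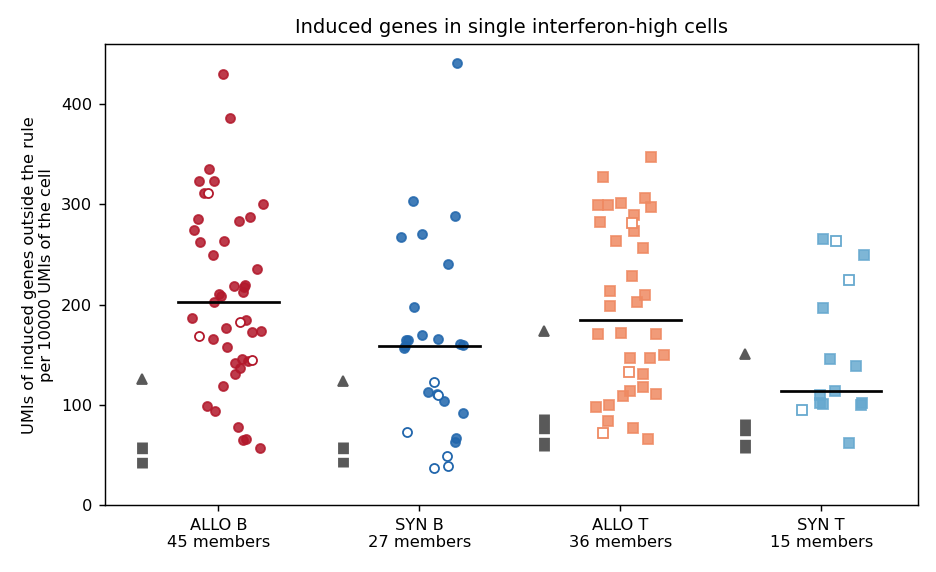
UMIs of the induced genes outside the rule per 10000 UMIs of the cell, 1 point for each interferon-high cell, with a black line at the median and open points for members with UMIs of only 1 or 2 rule genes. Grey bars span the quartiles of interferon-zero cells with their median in white, and triangles mark their 99th percentile, above which 38 ALLO B members lie.

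Cells just below the limit of the rule also held more induced transcript than interferon-zero cells. Their summed level in ALLO B cells was 5128.5 CPM (UMIs per 1000000 UMIs of the group) at a sum of 0, 6350 at 1, 6899 at 2, 9076 at 3 and 13916 at 4. It was 13546 at sums of 5 to 9, 19350 at 10 to 19 and 27126 at 20 or more. ALLO T cells went from 7268 CPM at 0 to 30862 at 20 or more, and SYN T cells from 7023 at 0 to 14555 at 5 to 9. SYN B cells reached 31276 CPM in the 4 cells with sums of 10 to 19. The single SYN B cell above 20 was at 3913 CPM, under the interferon-zero level, and is described below.

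Read gene by gene, 32 of 36 measured induced genes were at least 2-fold higher in ALLO B members, where 2.77% of the 5304 genes tested were and 5.98% were as much lower. A gene counts as measured with at least 20 UMIs over both groups and at least 5 expected in the members at equal level. The members' own UMIs count toward both limits, so a gene that is high in members passes them more easily. In ALLO T members it was 34 of 42, against 2.27% of 4326 genes higher and 7.84% lower, in SYN B 14 of 29, against 3.68% of 4237 higher and 8.57% lower, and in SYN T 11 of 25, against 1.93% of 2385 higher and 6.92% lower. The median log2 ratio of the measured genes was 1.75, 1.73, 0.93 and 0.90 in that order, where that of all genes tested lay between -0.12 and 0.01. No measured induced gene was 2-fold lower except 1 in SYN T, Ly6c1, with 4 UMIs.

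Of the induced genes, 18 were measured in all 4 groups, and 15 of these 18 were above 1 in all 4, the others being Shisa5, Nmi and Usp25. Rnf213, Bst2, Ifi27l2a, Ly6a and Slfn8 were at least 2-fold higher in every group. Bst2, the surface protein that tethers budding virus, stood at 334 CPM against 46.4 in ALLO B, 199 against 43.7 in SYN B, 540 against 78.4 in ALLO T and 318 against 81.3 in SYN T. Its UMIs were in 34, 17, 28 and 10 members of these groups, so its level did not come from a few cells. Ifi27l2a, an interferon-induced membrane protein, was at 1618 CPM against 362 in ALLO B, 1188 against 268 in SYN B, 1446.5 against 478 in ALLO T and 2521 against 335 in SYN T, where it was highest.

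**Figure D3:**
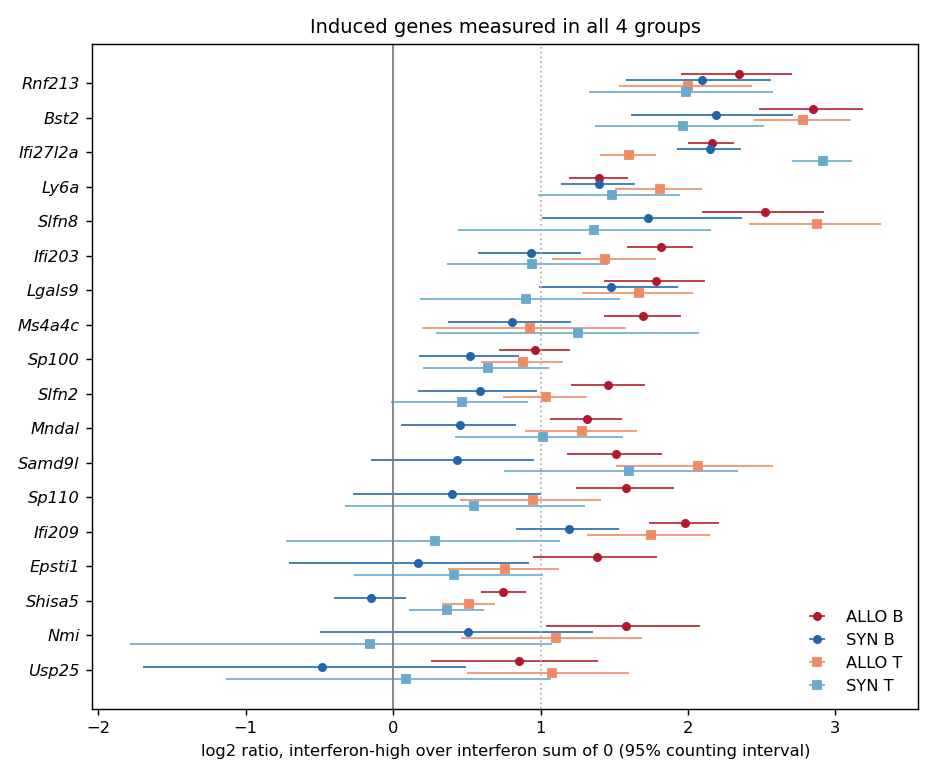
Log2 ratio of interferon-high over interferon-zero cells for the 18 induced genes measured in all 4 groups, with bars for 95% counting intervals and a dotted line at 2-fold. The upper 5 genes are past that line in all 4 groups, and Usp25 and Nmi lie on both sides of 0.

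Of the carriers of the signal, Irf9 and Stat2 were higher in members, while the intervals of Stat3, Tyk2, Ifnar1 and, in B members, Jak1 and Ifnar2 included 1. Over both libraries, Irf9 was 2.51 times (1.82 to 3.37) higher in B and 3.29 times (2.34 to 4.52) in T members, at 137 CPM against 54.2 in ALLO B, 99.5 against 42.5 in SYN B, 155 against 52.3 in ALLO T and 159 against 43.9 in SYN T. Stat2 was 6.06 times (3.87 to 9.13) higher in T members, with too few UMIs to count as measured, and 1.94 times (1.32 to 2.77) in B members, 2.48 times in ALLO but 1.21 times (0.520 to 2.39) in SYN. Stat3 was at 1.34 (0.963 to 1.81) in B and 1.19 (0.802 to 1.69) in T members, and Tyk2 at 1.63 (0.886 to 2.74) and 0.974 (0.389 to 2.03). Ifnar1 was at 0.549 (0.263 to 1.01) in B and 0.991 (0.539 to 1.67) in T members, and Jak1 at 0.856 (0.695 to 1.04) and 0.813 (0.663 to 0.986). Ifnar2 was at 1.04 (0.640 to 1.59) in B and at 1.5 (1.00 to 2.15) in T members. No UMI of an alpha, beta or lambda interferon gene was counted in a member, and none in an interferon-zero cell. Ifng was the only interferon gene with UMIs in members, 10 in 4 ALLO T and 4 in 2 SYN T members. In T members over both libraries it was at 1.64 (0.888 to 2.78), an interval that included 1.

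Among interferon regulatory factors the difference was concentrated in Irf7, which drives the later wave of type I interferon. Irf7 was at 361 CPM against 13.6 in ALLO B and 199 against 13.5 in SYN B members, and at 281 against 28.1 in ALLO T and 114 against 34.9 in SYN T. Over both libraries this was 21.8 times (17.6 to 26.8) in B and 7.04 times (5.27 to 9.27) in T members. Irf1, a target shared with interferon gamma, was at 1.54 (1.20 to 2.0) in B and 1.17 (0.879 to 1.54) in T members, and Irf2 and Irf3 had intervals that included 1 in both.

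Several sensors of nucleic acid were higher, but not Aim2, and the adaptors Mavs and Tmem173 (STING) had intervals that included 1. Zbp1, a sensor of left-handed nucleic acid, was 9.53 times (7.30 to 12.3) higher in B members, 11.2 times in ALLO and 5.51 times in SYN, and 7.26 times (5.69 to 9.15) in T members, 8.39 times in ALLO and 4.76 times in SYN. Eif2ak2, the kinase that stops translation on double-stranded RNA, was 7.6 times (5.57 to 10.2) higher in B and 6.42 times (4.01 to 9.86) in T members, in T below the limit for measured genes, and the RNA helicase Ddx58 (RIG-I) 3.12 and 3.73 times. Tlr7, the endosomal receptor for single-stranded RNA, was 5.08 times (3.32 to 7.47) higher in B members, with 18 UMIs in 14 ALLO and 9 in 7 SYN cells. The DNA sensor Aim2 was at 0.891 (0.518 to 1.43) in B members and at 0.155 (0.0039 to 0.868) in T members, from 1 member UMI.

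Antiviral effectors were higher by large ratios, and genes of ISG15 attachment by smaller ones apart from Herc6 and Ube2l6. Rsad2 (viperin), whose product makes a chain-terminating nucleotide, had 28 UMIs in 16 ALLO B, 8 in 6 SYN B, 17 in 10 ALLO T and 4 in 3 SYN T members. Its levels of 128, 53.1, 97.6 and 45.4 CPM stood against 1.02 CPM or less in interferon-zero cells, too few UMIs to count as measured. Slfn5, of the Schlafen family, was at 366 CPM against 21.9 in ALLO B, 219 against 19.9 in SYN B, 499 against 40.7 in ALLO T and 159 against 44.5 in SYN T, so SYN T members were the lowest. Isg20, an RNA exonuclease, was 13.7 times (10.6 to 17.5) higher in B and 16.0 times (11.5 to 22) in T members, where it had too few UMIs to count as measured. Herc6, the mouse ligase that attaches Isg15, was 6.76 times (4.87 to 9.17) higher in B members, 8.79 times in ALLO and 3.52 times (1.59 to 6.75) in SYN, and 4.37 times (3.02 to 6.16) in T members. Ube2l6 was 4.97 times (3.28 to 7.26) higher in B and 5.07 times (1.58 to 12.7) in T members. Its 5 UMIs in T members were too few to count as measured. Uba7, the activating enzyme, was 1.80 and 1.97 times higher, but with 1 UMI in SYN T members. Ifitm3, which blocks entry of virus, was mostly a B cell gene here, with 39 UMIs in 17 ALLO B members but 3 in 3 ALLO T members. Rtp4, a chaperone of receptors, was 13.8 times (10.4 to 18.2) higher in T members over both libraries.

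GTPases induced by interferon gamma and by type I interferon were also higher. Summed over the list they were 5.37 times (4.8 to 6.00) higher in ALLO B, 3.79 times (3.40 to 4.22) in ALLO T, 2.47 times (2.01 to 3.01) in SYN B and 2.43 times (2.02 to 2.90) in SYN T members. Irgm1, which guards the cell against its own effector GTPases, was at 270 CPM against 31.6 in ALLO B and 106 against 28.9 in SYN B members, and at 166 against 35.7 and 114 against 35.8 in T members. Iigp1, which attacks the vacuoles of parasites, had 19 UMIs in ALLO T, 2 in SYN T and 0 in B members. Gbp6 was 5.93 times (4.20 to 8.18) and Gbp2 4.07 times (2.78 to 5.78) higher in T members, while in B members Gbp2, with 8 UMIs, was at 1.81 (0.775 to 3.59).

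Class I presentation differed little. Its 20 genes summed to 1.39, 1.28, 1.15 and 1.26 times the interferon-zero level in ALLO B, ALLO T, SYN B and SYN T members. H2-T22 was 2.26 times (1.82 to 2.76) higher in B and 2.28 times (1.86 to 2.78) in T members, and Psme2, of the proteasome activator, 2.37 times (2.03 to 2.74) and 1.70 times (1.43 to 1.99). The classical heavy chains H2-K1 and H2-D1 lay between 1.06 and 1.15. Of the feedback genes, Socs1, which blocks the kinases, was 4.79 times (3.13 to 7.04) higher in B members, 6.45 times in ALLO and 2.23 times in SYN, and 2.0 times (1.35 to 2.76) in T members, but in SYN T it was at 56.8 CPM against 65.9. Socs3 was not higher in any group.

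Of the pathways outside the interferon response, NF-kB, immediate early and class II genes stayed near 1 or below, and heat shock genes were mixed. NF-kB genes summed to 0.888, 1.17, 0.966 and 0.890 in ALLO B, ALLO T, SYN B and SYN T members, and immediate early genes, which report recent stimulation or handling stress, to 0.889, 1.05, 0.70 and 1.07. Class II genes were at 0.894 (0.874 to 0.914) in ALLO B and 0.692 (0.671 to 0.714) in SYN B members. In SYN B this was 0.951 (0.917 to 0.986), and immediate early genes 0.991 (0.927 to 1.06), among the 21 members with at least 3 rule genes. The heat shock gene Hsp90ab1 was at 1.41 (1.29 to 1.53) in ALLO B and 1.28 (1.10 to 1.49) in SYN T members. It was at 0.926 (0.815 to 1.05) in ALLO T and 0.872 (0.756 to 1.00) in SYN B members. Hspa5 was at 2.02 (1.67 to 2.42) in SYN B, with 49 of 119 UMIs in 1 cell. Of homing genes, Gpr183, the oxysterol receptor that places lymphocytes in the spleen, was at 0.259 (0.0948 to 0.566) in T members, from 4 ALLO and 2 SYN UMIs. Cd69, which interferon induces and which holds cells back from leaving, was at 804 CPM against 496 in ALLO T and 659 against 511 in SYN T members, 1.5 times (1.29 to 1.72) over both, and at 1.03 (0.906 to 1.17) in B members.

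**Figure D4:**
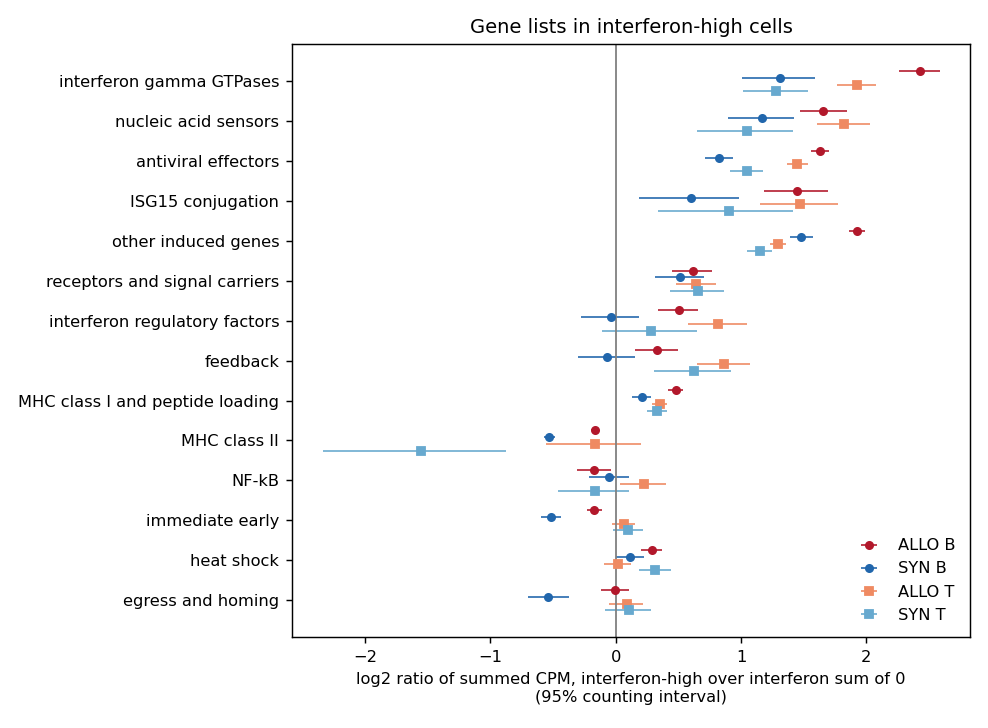
Log2 ratio of the summed CPM of each gene list in interferon-high over interferon-zero cells, for the 4 groups, with bars for 95% counting intervals. The 5 upper lists lie above 0 in all 4 groups, and NF-kB, immediate early and homing genes scatter around 0.

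B and T members shared most of the programme, with exceptions. Of 94 interferon-related genes with a value in both lineages, 50 had their B and T ratios ordered the same way in both libraries, 27 of them higher in B. That share is close to what random order would give, and no share over all genes stands beside it. The median of the B minus T log2 differences was 0.05. Irf7 led after Ly6c2, with a log2 ratio of 4.45 in B and 2.82 in T, a difference of 1.63 (1.14 to 2.12). Ifi47 followed at 1.42 (1.04 to 1.81), Ifi213 at 1.27 (0.78 to 1.75) and Socs1 at 1.29 (0.55 to 2.04). Ly6c2, a surface protein that many T cells carry without interferon, differed by 3.28 (2.91 to 3.64), by 2.23 in ALLO and 4.34 in SYN. In B members it came from 10 cells, 6 ALLO and 4 SYN, and its reads cannot be split with certainty from Ly6c1, 97.6% identical.

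Of the genes ordered the same way in both libraries, 12 had an interval of the B minus T difference above 0 and 7 below 0. Stat2, with too few UMIs in T cells to count as measured, had log2 ratios of 0.96 in B and 2.60 in T members. Pml, the scaffold of nuclear bodies, was at 503 CPM against 149 in ALLO B and 318 against 159 in SYN B, but 161 against 30.1 in ALLO T and 148 against 35.8 in SYN T, a B minus T log2 difference of -0.75 (-1.27 to -0.24). The phosphatase Ptpn6 differed by -0.78 (-1.21 to -0.36), by -0.22 in ALLO and -1.65 in SYN, Samd9l by -0.72 (-1.21 to -0.22) and Trim25 by -0.75 (-1.42 to -0.07), and each had a higher interferon-zero level in B than in T cells. Samhd1, which removes nucleotides, also belonged here at -0.66 (-1.0 to -0.32). On thinned cells, Samhd1 and Samd9l turned to B ratios of 1.18 and 1.26 times the T ratio.

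**Figure D5:**
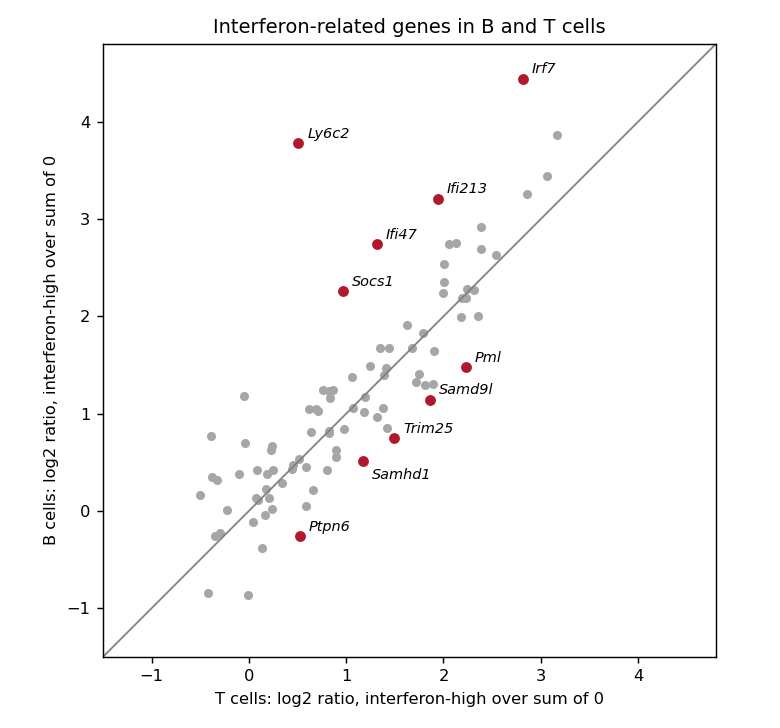
Log2 ratio of interferon-high over interferon-zero cells in T cells (x axis) and B cells (y axis), both libraries summed, 1 point for each of 94 interferon-related genes, with the line of equal ratios. The 10 genes named in red are those farthest to either side by interval bound, among genes ordered the same way in both libraries. Ly6c2 is at 3.78 in B and 0.51 in T.

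Between the libraries, induced genes made up a larger part of the summed UMIs in ALLO than in SYN members. In B cells this depended on members of few rule genes, as described below. The ratios are per UMI and not per cell, and SYN T members were deeper, with a median of 5491 UMIs against 4573 in ALLO. Summed over the induced genes the ratio of ALLO over SYN members was 1.54 (1.45 to 1.63) in B and 1.23 (1.16 to 1.31) in T cells, while interferon-zero cells gave 1.00 (0.993 to 1.01) and 1.03 (1.02 to 1.05). Of 47 measured induced genes, 12 were at least 2-fold higher in ALLO B members, where 6.88% of 2891 genes were (6.50% as much lower), and 11 of 46 in T members, where 5.99% of 1836 genes were (4.68% lower). GTPases were 2.29 times (1.83 to 2.89) higher in ALLO B and 1.52 times (1.24 to 1.87) in ALLO T members, against 1.05 and 0.976 in interferon-zero cells.

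In B cells the summed difference in induced genes was smaller without members of few rule genes. The 3 SYN B members with UMIs of a single rule gene had 14483, 16195 and 24279 UMIs, where the median SYN B member had 3333. Their induced genes were at 49.0, 37.7 and 39.1 per 10000 UMIs, at or below the interferon-zero median of 49.4. The deepest held 25 Isg15 UMIs and no other rule UMI, 577 Ighm, 97 Jchain, 56 Xbp1, 52 Hist1h1b and 16 Mki67 UMIs, genes of antibody secretion and of cell division. Another held 615 Jchain and 367 Igha UMIs and 7 of Isg15, so for both cells the leading genes were those of antibody-secreting cells and the interferon label goes against their other values. Members with at least 3 rule genes, 41 ALLO and 21 SYN B cells, gave an ALLO over SYN ratio of 1.03 (0.971 to 1.10) for induced genes and 1.47 (1.15 to 1.89) for GTPases. Their median per cell was 209 in ALLO and 165 in SYN per 10000 UMIs, and over all B members the ratio was 1.31 with each cell weighted equally and 1.36 without the deepest cell. In T cells the same limit, with 33 and 12 members, gave 1.39 (1.29 to 1.5) and 1.66 (1.30 to 2.12).

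Among single genes, the rule gene Ifit3, given as a description, had 859 CPM in ALLO B members against 245 in SYN, and 517 against 90.9 in T members. Outside the rule, Ifi47 was 3.04 times (1.94 to 4.96) and Tor3a 3.27 times (1.89 to 6.01) higher in ALLO B members, and 1.82 times (1.13 to 3.08) and 2.15 times (1.18 to 4.23) with at least 3 rule genes. A pair of genes outside the lists also ranked there, Mrpl30 of the mitochondrial ribosome at 297 CPM against 79.6 and Ylpm1 at 110 against 6.63, which in interferon-zero cells were at 0.955 and 0.890. Ylpm1 had 24 UMIs in 15 ALLO cells and 1 in SYN. Lower in ALLO B members were Jchain, Igha, Hist1h1b, Tbc1d4, Eaf2 and Ccnd1. Of their SYN UMIs, 615 of 713, 367 of 367, 52 of 52, 35 of 35, 15 of 30 and 26 of 26 were in 1 cell.

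In T members, Slfn5 was 3.14 times (1.78 to 5.98) higher in ALLO, at 499 CPM against 159, where interferon-zero cells gave 0.914 (0.767 to 1.09). Igfbp4 and Selenop were higher as well, at 2.79 and 4.68 times. Ifit3b, a rule gene given as a description, had 27 ALLO and 2 SYN UMIs, and its split from Ifit3 is uncertain. The chemokine Ccl5 had 2107 CPM in ALLO members against 556 in SYN, 3.79 times (2.80 to 5.21) against 1.61 (1.57 to 1.65) in interferon-zero cells, but its UMIs came from 12 and 3 members, with 99 in a single ALLO cell. Lower in ALLO T members were S100a6, Lgals1, S100a4, S100a11, Ramp1 and Klf6. A single SYN cell of 8912 UMIs with Isg15 as its only rule gene held 56 of 110 S100a6, 57 of 93 Lgals1, 12 of 29 S100a4 and 28 of 57 S100a11 UMIs, and with at least 3 rule genes S100a6 was at 1.08 (0.541 to 2.30). Klf6, with 20 UMIs in 9 SYN members against 7 in 7 ALLO members, was at 0.177 (0.0632 to 0.436), and at 0.303 (0.0867 to 0.997) with at least 3 rule genes. Ramp1 was at 0.140 (0.0407 to 0.392).

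Markers of the lineages and of other cells were set beside the members' labels. B cell markers summed to 0.978 (0.942 to 1.02) of the interferon-zero level in ALLO B members and to 1.38 (1.33 to 1.43) in SYN B, where 34.6% of their UMIs were in 1 cell, and T cell markers to 0.911 (0.845 to 0.981) in ALLO T and 1.10 (1.00 to 1.20) in SYN T members, with all 14 T cell markers present in both. T cell marker UMIs in B members (54 ALLO, 32 SYN) and B cell marker UMIs in T members (59 and 36) gave ratios whose intervals included 1. In SYN B members, 70 of 115 NK marker UMIs were in 1 member, and 87 of 191 myeloid marker UMIs in 1 member. SYN B members with 1 or 2 rule genes held at most 12 and 26, so both peaks were in members with at least 3. For such members the markers do not settle the lineage. In ALLO B members the highest were 3 of 16 and 6 of 81. Red cell and platelet markers had 0 UMIs in every member. Interferon-zero cells held only 23.6, 2.55, 27.2 and 10.2 CPM in ALLO B, ALLO T, SYN B and SYN T. The interval of each such gene with a value included 1. Of 8 markers of plasmacytoid dendritic cells, which are best known for making type I interferon, Siglech, Ccr9, Klk1, Cox6a2 and Smim5 had 0 UMIs in all 4 groups of members. Interferon-zero B cells held 23, 39, 6, 21 and 5 UMIs of them, too few for a 0 to tell the groups apart. Interferon-zero T cells held 27, 216, 14, 26 and 5, so the same holds there for all but Ccr9. The plasmacytoid list summed to 160 CPM against 140 in ALLO B and 226 against 147 in SYN B members, where 29 of 35 and 31 of 34 UMIs were of Tcf4, a gene that B cells also express. In T members it summed to 34.4 against 77.8 and 56.8 against 94.4.

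The genes lowest in T members included those of neutrophils and of dividing cells. In T members S100a8 had 0 UMIs and S100a9 1, where interferon-zero T cells held 6798 and 7256, followed by Ngp, Lcn2, Gzma, Hist1h1b, Mki67, Tyrobp, Ube2c and Ltf. The S100a8 UMIs were in 15 of 1271 ALLO and 20 of 1827 SYN interferon-zero cells, and the 10 highest cells held 99.9% and 99.4% of them. A count of 0 among 36 ALLO and 15 SYN T members allows up to 8.33% and 20% of such cells, so a share as low as in interferon-zero cells was not detectable. Myeloid markers as a list, 16 genes, summed to 126 CPM against 2285 in ALLO T and 125 against 786 in SYN T. Csf3r, Cd14, C1qa and C1qb were at 0 in members. Interferon-zero T cells held only 39, 1, 0 and 0 UMIs of them, too few for a 0 to tell the groups apart. The part of myeloid markers in the lower genes was not tested.

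In B members the lowest 10 genes were Lyz2, Hdac9, Ppcs, Apoe, Zfp961, Pgap1, Camp, Srf, Zfp395 and Ier2. Of these 10, 7 had 0 or 1 UMI in all members together. Ier2, an immediate early gene, was at 233 CPM against 379 in ALLO and 133 against 385 in SYN members, and Apoe, a lipid carrier with UMIs in 20% of ALLO and 19.1% of SYN interferon-zero B cells, at 22.8 against 141 and 79.6 against 151. Pgap1, which remodels lipid anchors, was at 36.6 against 113 and 53.1 against 120, from 7 ALLO and 7 SYN cells.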

How the data were processed

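Splenocytes of 2 libraries, 1 ALLO and 1 SYN, were captured with 5′ single-cell chemistry. The values are raw UMI counts per gene and barcode, which the authors deposited as filtered matrices. Per the submitters' processing notes, Cell Ranger 6.0.2, FastQC and the mm10 build were used.

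Barcodes with at least 1000 UMIs and at most 10% mitochondrial UMIs were kept, 9792 in ALLO and 11198 in SYN. UMIs were summed over the cells of a group and given as CPM. Ratios have exact conditional Poisson intervals and shares Clopper-Pearson intervals (95%), which cover counting error only. With 1 library per group no test was made. A gene was counted as higher or lower past 2-fold, and a count of 0 allows 3 counts. Doublets were scored with Scrublet in scanpy 1.11.5, whose automatic threshold marked 0 ALLO and 2 SYN barcodes, so none were removed. Python 3.11.15, numpy 2.4.6, scipy 1.17.1, pandas 2.3.3 and matplotlib 3.10.9 were used. The ratios and intervals were tested on simulated Poisson counts at the sizes of the groups. Such counts lack the clumping of UMIs in single cells, so they could not test the intervals for it.

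The members and the gene lists were chosen with earlier results of these data known. Genes were named as the 7 rule genes, list members from the largest ratio down, the 10 highest and lowest measured genes per lineage by the interval bound nearest 1 and on the same side in both libraries, the 6 highest and lowest for ALLO over SYN, and the 5 highest and lowest for B over T. Alternatives covered the limit of the sum, its genes, depth, lineage limits, scaling and filters. Mx1, Mx2, Oas1b and Gm12250 and the promoter of Usp18 were not used here.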

Additional observations from a re-analysis of the deposited data

Results flagged for a closer look

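Barcodes that met neither lineage rule also held interferon sums of at least 5. They were 12 of 1094 in ALLO (1.10%, 0.568 to 1.91%) and 20 of 1992 in SYN (1.00%, 0.614 to 1.55%), and 10 and 13 of them had UMIs of both Cd79 and Cd3 genes. At least 5 NK marker UMIs were in 4 and 12 of them, and at least 5 myeloid marker UMIs in 3 and 8. Over all 12 and 20 barcodes, the medians of induced genes were 201 and 150 per 10000 UMIs, with median depths of 5717 and 5799 UMIs.

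Several marker lists lay on opposite sides of 1 in the libraries, in members over interferon-zero cells, and the differences were not tested. Plasma cell markers were at 0.626 in ALLO B and 10.6 in SYN B, where 94.9% of 998 UMIs were in 2 cells. B subset genes were at 0.838 and 2.86, with 56.7% of the SYN UMIs in 1 cell. NK markers were at 0.476 and 3.57, with 84.3% of 115 SYN UMIs in 2 cells. Among SYN B members with at least 3 rule genes these lists were at 0.765, 0.961 and 5.97. T cell markers were at 0.911 in ALLO T and 1.10 in SYN T members.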

How the results depend on the processing

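With 1 library per group nothing here bears on replication, and few members and low counts limit every value. No paired analysis was possible because ALLO and SYN share a single replicate number and no test was made. Leaving out the barcodes that Scrublet marks was not run, since its threshold marked almost none. The alternatives chosen after seeing the data were at least 3 rule genes, leaving out the 5% highest Scrublet scores, equal weight for each cell, and leaving out the deepest SYN B member. A value was counted as kept if it stayed within the 95% interval of the reported value, or, for a count of genes, within 1.5 times of it, and as reversed if a ratio whose interval excluded 1 crossed 1. Of the values of the main comparisons 151 were kept, 64 moved and 1 reversed, and of single genes 597, 113 and 7. Values below run ALLO B, ALLO T, SYN B, SYN T unless named, and the cause of each change was not tested beyond what the alternative's construction shows.

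A limit of 3 gave shares of 1.51, 4.44, 0.926 and 1.79%, a limit of 10 gave 0.317, 1.02, 0.0735 and 0.0416%, and a sum without Isg15 gave 0.461, 1.25, 0.221 and 0.25%. At 10, ALLO over SYN was 4.31 in B and 24.6 in T cells, and T over B in SYN was 0.566, from 1 SYN T cell, where the reported 1.57 had an interval that included 1.

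The summed induced genes, members over interferon-zero cells, were 4.29, 3.38, 2.53 and 3.78 at a limit of 10, with 2-fold counts of 17 in ALLO T, 3 in SYN B and 0 in SYN T. Thinning gave 4.04, 2.66 and 3.03 in ALLO B, ALLO T and SYN B, with counts of 12, 6, 7 and 1 over the 4 groups, fewer because fewer genes stay measured. Barcodes of 2000 to 8000 UMIs gave 4.37, 2.66, 3.02 and 2.33, with a SYN T count of 7. Strict lineage limits gave 2.38 in ALLO T and 1.957 in SYN T, with a SYN T count of 5. Median of ratios scaling gave 3.16 in ALLO B, 2.45 in ALLO T and 1.97 in SYN T. No filter gave counts of 61, 59, 43 and 44. At least 3 rule genes gave 3.27 in SYN B and 1.95 in SYN T, with a SYN T count of 5. Equal weight gave 3.97 in ALLO B and 3.02 in SYN B, and leaving out the deepest SYN B member gave 2.51.

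For ALLO over SYN in members, the summed induced genes at a limit of 10 were 1.70 in B and reversed to 0.926 in T, against 1 SYN T cell, with a T count of 1. Thinning gave 1.32 in B, with counts of 2 in B and 4 in T. Median of ratios scaling gave 1.32 in T, and a filter of 100 UMIs left counts of 1 and 1. At least 3 rule genes gave 1.03 in B, with a count of 3, and 1.39 in T. Equal weight gave 1.31 in B, with a count of 6, and leaving out the deepest SYN B member gave 1.36.

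Single genes that reversed were Ccl5 at 0.800 and Ifit3b at 1.00 in T members at a limit of 10. S100a4 in T members reversed to 1.34 under strict lineage limits and to 1.35 with at least 3 rule genes, where S100a6 was at 1.08. Thinned, the B over T ratios of Samhd1 and Samd9l reversed to 1.18 and 1.26.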
